A study of Mus musculus with 10 samples.

Results

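A set of 10 melanocyte and pigment genes was followed across 10 libraries of whole mouse skin: Dct, Tyr, Tyrp1, Pmel, Mlana, Oca2, Slc45a2, Mitf, Kit and Sox10. They were chosen by name as genes of melanin synthesis, the melanosome and the melanocyte lineage, and all 10 were found among the 23282 entries of the deposited tables. The libraries came from C57BL/6 mice at 5 months of age, with 5 libraries of mice whose keratinocytes lack STAT3 (STAT3cKO) and 5 of wild-type animals (WT). The ablation is named as specific to keratinocytes, so by the label the melanocytes of STAT3cKO skin were not its target; the Cre driver, the deleted exons, the sex, the body site and the phase of hair growth were not given in the sources used here. Each deposited value behaves as a log2 of scaled reads per gene plus 1, a unit that the sources do not state. The libraries hold 3′ transcript ends, in which a transcript gives reads whatever its length. How fully the counting caught each gene was not tested, so levels of different genes can be set side by side only roughly.

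Melanin is made in melanosomes, lysosome-related organelles of melanocytes. Tyrosinase (Tyr) starts the synthesis from tyrosine, dopachrome tautomerase (Dct) and tyrosinase-related protein 1 (Tyrp1) carry out later steps, and MITF, the main transcription factor of the lineage, drives their genes. In mouse body skin most pigment cells sit in hair follicles: melanocyte stem cells rest with the resting follicle, and differentiated melanocytes make pigment in the bulb while the hair shaft grows. The keratins Krt71 and Krt25 of the inner root sheath, a layer that surrounds the growing shaft, therefore served as the measure of hair growth in each library, as the mean of their values (the hair keratin level).

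The estimated depth was 7440000 to 18500000 reads in STAT3cKO and 7130000 to 16800000 reads in WT libraries. STAT3cKO 4 and 5 and WT 1 and 2, at 14200000 reads or more, are called the 4 deeper libraries. The rest, at 9930000 reads or less, are the 6 shallower ones. STAT3cKO 2 had no read for 2617 of the 11536 tested genes and WT 3 for 1273, against 83 to 1097 in the other libraries, so a gene without a read there may have been missed. In a library without a read, a count of up to 3 reads stays possible, which is a value of 1.43 to 2.47 depending on the library; this limit and the read numbers below cover counting error only. Skin was recognisable in every library: the summed level of 8 keratinocyte and dermal genes was 16.92 to 17.91 in STAT3cKO and 16.36 to 17.27 in WT. Stat3 was at 9.49 to 10.81 in STAT3cKO and 9.08 to 10.29 in WT, which is no check of the ablation, since reads at the 3′ end can come from a transcript without the deleted exons and other cells of the skin keep the gene. Nothing in the labels says that each library is a separate mouse, so p-values refer to the spread between libraries, which may be technical.

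The hair keratin level differed widely between libraries of both groups. It was 12.97, 0.06, 14.86, 0.39 and 11.67 in STAT3cKO 1 to 5, and 0.00, 0.00, 8.13, 15.75 and 5.96 in WT 1 to 5. STAT3cKO 1, 3 and 5 and WT 4 thus carried abundant inner root sheath transcripts, WT 3 and WT 5 lower amounts, and STAT3cKO 2 and 4 and WT 1 and 2 at most about 1 read of either keratin. The levels ran over a range of 15.75 without a gap beyond 5.58, so they were used as a continuous measure and libraries were not regrouped by them. The change of Krt71 between the genotypes was 2.05 (SE 4.04, limma adjusted p = 0.873) and that of Krt25 was 2.00 (SE 4.15, limma adjusted p = 0.882).

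Of the 3 melanin synthesis enzymes, Dct was the 1 with reads in all 10 libraries, and it was high where hair keratins were high. Its value was 10.43, 7.57, 10.77, 8.38 and 10.49 in STAT3cKO 1 to 5, and 7.15, 6.84, 7.74, 12.93 and 7.72 in WT 1 to 5. WT 4, the library with the highest hair keratin level, was the highest of all, the 3 STAT3cKO libraries with high hair keratins came next, and the other 6 lay between 6.84 and 8.38. Those 6 libraries held about 134 to 454 Dct reads each, so that Dct was detected also where no inner root sheath keratin was.

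Tyrp1 had 7.82, 0.06, 9.98, 6.73 and 6.48 in STAT3cKO 1 to 5, and 0.00, 0.00, 0.06, 10.13 and 7.75 in WT 1 to 5. The highest values were again those of WT 4 and STAT3cKO 3, with about 935 and 930 reads, and 1 STAT3cKO and 3 WT libraries had no read. STAT3cKO 4, with about 144 reads of Tyrp1, had almost no hair keratin, and WT 3 had 332 reads of Krt71 and none of Tyrp1.

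Tyr, which encodes the rate-limiting enzyme, was close to the limit of detection. It reached 6.37, about 69 reads, in WT 4. STAT3cKO 4 and 5 had 2.62 and 1.40, about 7 and 3 reads, and the other 7 libraries, among them STAT3cKO 3 with its high hair keratins, had none.

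**Figure D1:**
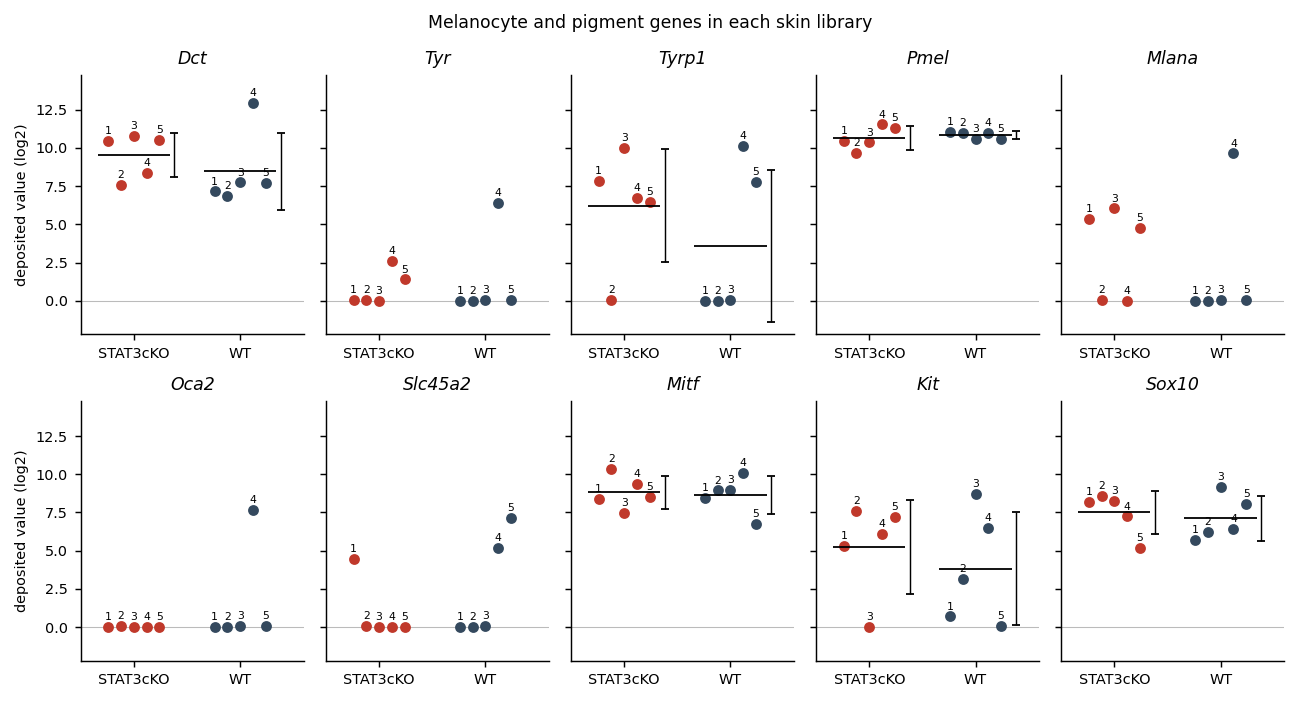
Deposited log2 values of the 10 genes in the 5 STAT3cKO (left, red) and 5 WT (right, dark) libraries; numbers beside the points are replicate numbers, and lines with bars give the mean and SD for the 6 genes that entered the test. WT 4 is the top library for Dct, Tyr, Tyrp1, Mlana and Oca2, Pmel lies in a narrow band in all 10, and the groups overlap for every gene.

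The 3 enzyme genes share a sequence before their start sites that is known as the M-box, the element that MITF binds. It is shown as background. Its presence in these 3 genes was known beforehand, so finding it is no test, and its bearing on the values of the libraries was not tested. The RefSeq table (GRCm38.p6) held 300-base windows, from 250 bases before to 50 after a start site, for 6 of the 10 genes, 9 windows in all: Dct, Tyr, Tyrp1, Oca2, Mitf and Kit. The letters TCATGTGCT were searched on both strands and stood in 134 of 32851 windows of all genes, or 0.408%. Among the 9 windows the letters were found in those of Dct, Tyr and Tyrp1, beginning at base 100, 229 and 204 of the window. The core CATGTG, which lies within them, stood in 14.2% of all windows, and was found once more on the other strand in those of Dct and Oca2. In the sequences, given 5′ to 3′ in the direction of the gene, capitals mark TCATGTGCT.
Dct, chr14:118052197-118052496, minus strand: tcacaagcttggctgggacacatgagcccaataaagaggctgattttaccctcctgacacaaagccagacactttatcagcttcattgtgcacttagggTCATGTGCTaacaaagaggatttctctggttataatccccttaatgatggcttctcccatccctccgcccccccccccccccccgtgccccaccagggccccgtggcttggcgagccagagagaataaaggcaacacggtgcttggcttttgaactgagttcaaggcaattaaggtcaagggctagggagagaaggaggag
Tyr, chr7:87493463-87493762, minus strand: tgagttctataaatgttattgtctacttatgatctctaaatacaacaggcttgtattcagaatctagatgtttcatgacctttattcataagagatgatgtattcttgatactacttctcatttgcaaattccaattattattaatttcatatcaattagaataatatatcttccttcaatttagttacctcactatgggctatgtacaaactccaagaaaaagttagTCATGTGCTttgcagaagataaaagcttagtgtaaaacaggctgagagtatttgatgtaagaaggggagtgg
Tyrp1, chr4:80833963-80834262, plus strand: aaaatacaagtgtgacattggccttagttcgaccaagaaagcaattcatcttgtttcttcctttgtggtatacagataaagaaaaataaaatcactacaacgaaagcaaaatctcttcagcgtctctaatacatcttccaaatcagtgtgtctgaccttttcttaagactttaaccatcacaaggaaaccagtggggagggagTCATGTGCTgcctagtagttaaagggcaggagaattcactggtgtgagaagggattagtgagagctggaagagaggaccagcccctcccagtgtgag

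The genes of the melanosome and its membrane did not share a single pattern. Mlana, the melanosomal antigen MART-1, had 5.34, 0.06, 6.04, 0.00 and 4.76 in STAT3cKO 1 to 5, and 0.00, 0.00, 0.06, 9.64 and 0.08 in WT 1 to 5. It had reads in the 4 libraries with the highest hair keratin levels and in none of the other 6, with about 32, 60 and 46 reads in STAT3cKO 1, 3 and 5 and 666 in WT 4.

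Oca2, a melanosomal chloride channel whose loss gives the pink-eyed dilution coat, was read in WT 4 alone, at 7.68 or about 170 reads. Slc45a2, a melanosomal transporter mutated in the underwhite mouse, had a value of 4.45 in STAT3cKO 1, against 5.201 in WT 4 and 7.13 in WT 5, and no read in the other 7. Its highest library, with about 92 reads, was thus one with a low hair keratin level.

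Pmel, which forms the fibrils on which melanin is laid down, had a different profile from the other melanosome genes. Its value was 10.44, 9.65, 10.36, 11.54 and 11.30 in STAT3cKO 1 to 5, and 11.06, 10.98, 10.56, 10.99 and 10.61 in WT 1 to 5. It was abundant in every library, including those without a read of Tyr, Tyrp1 and Mlana, and its full range was 1.88, against 6.08 for Dct. In GENCODE M21 on mm10 the gene runs on the plus strand of chromosome 10 from 128704195 to 128720238, and its 3′ end shares 105 exonic bases with Dgka, a diacylglycerol kinase gene on the minus strand.

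Dgka had 10.06, 9.65, 9.54, 11.62 and 11.26 in STAT3cKO 1 to 5, and 11.06, 11.13, 10.66, 10.003 and 10.73 in WT 1 to 5. Pmel minus Dgka on the log2 scale was 0.37, 0.01, 0.83, −0.08 and 0.04 in STAT3cKO 1 to 5, and 0.00, −0.14, −0.10, 0.99 and −0.12 in WT 1 to 5. In 7 of the 10 libraries the values of the neighbours thus lay within 0.14 of each other, and Pmel stood above Dgka by 0.37 or more in WT 4, STAT3cKO 3 and STAT3cKO 1, the 3 libraries with the highest hair keratin levels. Whether counting used strand is not given in the sources at hand; reads in the shared bases cannot be told apart, and how much of the Pmel value they make was not tested, so its level is uncertain. Pmel also shares 34 exonic bases with Cdk2 on the minus strand, the nearest 16010 bases along the genome from the Pmel 3′ end. The exons of the other 9 genes share no base with the exons of another gene in that annotation.

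**Figure D2:**
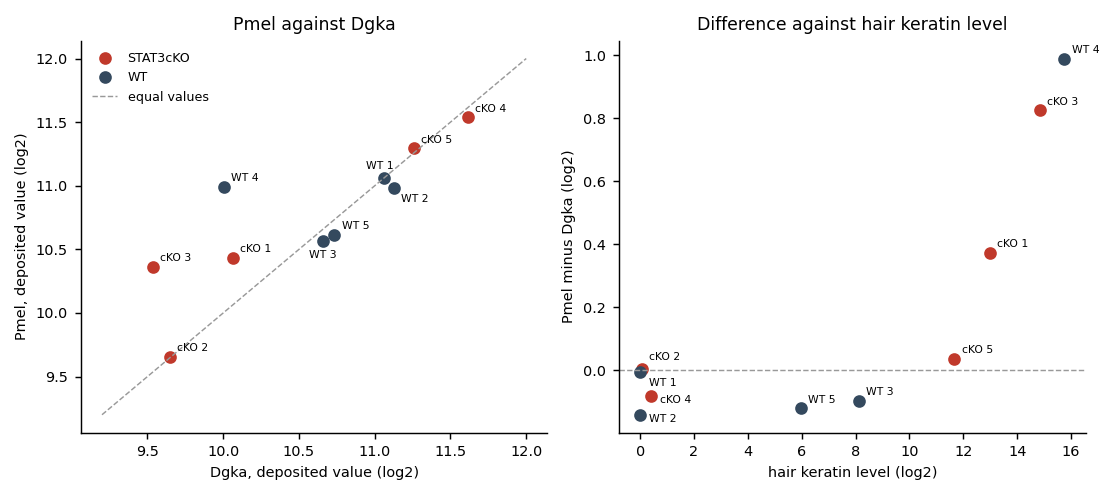
Left, Pmel against Dgka (deposited log2 values), with the line of equal values; right, their difference against the hair keratin level. Each point is 1 library, red and marked cKO for STAT3cKO, dark for WT. WT 4, STAT3cKO 3 and STAT3cKO 1 lie above the line by 0.99, 0.83 and 0.37, the others near it.

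The lineage genes Mitf, Kit and Sox10 did not rank the libraries as Dct did. Their highest values stood in STAT3cKO 2 (Mitf) and WT 3 (Kit and Sox10), the libraries with the most tested genes without a read. The bearing of those missed genes on the ranks was not tested. Mitf had 8.37, 10.37, 7.50, 9.34 and 8.51 in STAT3cKO 1 to 5, and 8.45, 8.94, 8.99, 10.09 and 6.76 in WT 1 to 5. It was highest in STAT3cKO 2, which had no hair keratin read, and next in WT 4. Mitf has several promoters, of which some serve cells other than melanocytes, and the values do not separate them. One of its 3 windows holds the cAMP response element TGACGTCA (capitals), through which melanocortin signalling is known to raise Mitf in melanocytes. That palindrome stood in 588, or 1.79%, of all windows.
Mitf, chr6:97991533-97991832, plus strand: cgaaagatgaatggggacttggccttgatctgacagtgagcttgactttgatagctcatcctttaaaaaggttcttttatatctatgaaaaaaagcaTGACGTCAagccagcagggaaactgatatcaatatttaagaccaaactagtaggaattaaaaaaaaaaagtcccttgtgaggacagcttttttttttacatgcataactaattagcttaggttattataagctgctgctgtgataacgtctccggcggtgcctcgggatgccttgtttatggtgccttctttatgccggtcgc

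Kit, the receptor tyrosine kinase that melanocytes and mast cells both need, had 5.29, 7.57, 0.01, 6.09 and 7.19 in STAT3cKO 1 to 5, and 0.70, 3.14, 8.68, 6.46 and 0.08 in WT 1 to 5. STAT3cKO 3, with the second highest hair keratin level, and WT 5 had no read of it. Mast cell genes were present beside it: the summed level of 9 of them was 12.38, 14.22, 11.87, 14.44 and 13.78 in STAT3cKO 1 to 5, and 14.24, 12.75, 14.18, 12.38 and 13.18 in WT 1 to 5. The lowest mast cell sum stood in STAT3cKO 3, but WT 1 combined a high one with about 1 read of Kit, and WT 4 a low one, 12.38, with a Kit value of 6.46. Of the mast cell genes, Mcpt4, a chymase, was at 10.85 or more in every library, and Cpa3, Cma1 and Tpsb2 had reads in all of them. Tpsab1, Fcer1a and Ms4a2 had no read in STAT3cKO 3 and in some other libraries, and Hdc and Gata2 had none in WT 5. The part of mast cells in the Kit and Mitf values was not tested.

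Sox10, a neural crest factor of melanocytes and Schwann cells, had 8.20, 8.59, 8.27, 7.24 and 5.202 in STAT3cKO 1 to 5, and 5.69, 6.21, 9.19, 6.40 and 8.05 in WT 1 to 5. Its highest library was WT 3, and WT 4, highest for the enzyme genes, was among the 4 lowest. The summed level of 10 Schwann cell genes was 12.65, 14.28, 13.57, 11.87 and 11.89 in STAT3cKO 1 to 5, and 12.03, 11.88, 13.40, 12.15 and 13.70 in WT 1 to 5. All 5 libraries with a Sox10 value above 8 had a Schwann sum of 12.65 or more, and the other 5 had 12.15 or less. The cut at 8 was not set beforehand. All 5 libraries above it were among the 6 shallower ones, and all 4 deeper libraries lay below it. WT 4 was also shallower but lay below the cut, with a Schwann sum of 12.15. Apart from WT 4, depth class and Schwann cell content cannot be told apart in this split. Of the Schwann cell genes, Cdh19 and Erbb3 had at most about 1 read in any library. The part of Schwann cells in the Sox10 value was not tested.

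Whether the genes differed between STAT3cKO and WT skin was asked with limma over the 11536 genes that reached a value of 5 in 5 or more libraries, with calls at a Benjamini-Hochberg adjusted p under 0.05. Dct, Tyrp1, Pmel, Mitf, Kit and Sox10 passed that filter, and Tyr, Mlana, Oca2 and Slc45a2 did not. None of the 6 was called, 0 of 6 had an unadjusted p under 0.05, while 0.988% of all tested genes were called, 0.529% as higher and 0.459% as lower in STAT3cKO. The libraries of the genotypes overlapped for all 6, while 3.42% of tested genes had groups without overlap. In whole skin, fewer melanocytes and less RNA per melanocyte cannot be told apart in any such value.

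Dct averaged 9.53 ± 1.45 in STAT3cKO and 8.48 ± 2.52 in WT (SD, n = 5 each). The change was 1.05, with an SE of 1.17, a 95% interval of −1.55 to 3.66 and a limma adjusted p of 0.764. Tyrp1 averaged 6.21 ± 3.70 in STAT3cKO and 3.59 ± 4.96 in WT. Its change was 2.63, with an SE of 2.33, a 95% interval of −2.27 to 7.53 and a limma adjusted p of 0.700. These intervals leave room for large changes in either direction. The intervals were narrower for Pmel, with a change of −0.19 (95% interval −0.92 to 0.55, limma adjusted p = 0.865), and Mitf, with 0.17 (−1.15 to 1.49, limma adjusted p = 0.940). Kit had a change of 1.42 (−2.88 to 5.71, limma adjusted p = 0.821) and Sox10 one of 0.39 (−1.78 to 2.57, limma adjusted p = 0.910). Over the 6 genes the median was 0.73, beside −0.16 over all tested genes. The Dct change depended on which libraries entered: it was 2.17 without WT 4 (limma adjusted p = 0.126), 2.44 in the 4 deeper libraries (limma adjusted p = 0.200) and 0.13 in the other 6 (limma adjusted p = 0.998).

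With the hair keratin level as a covariate, the change of Dct became 0.52 (SE 0.55, 95% interval −0.64 to 1.67, limma adjusted p = 0.726). That of Tyrp1 became 1.67 (SE 1.95, limma adjusted p = 0.753). For the 4 genes under the filter, exact 2-sided permutation tests over all assignments of 5 libraries to a group, 4 unadjusted tests, gave p = 0.873 for Tyr (means of 0.82 in STAT3cKO and 1.30 in WT) and p = 0.476 for Mlana (3.24 in STAT3cKO and 1.96 in WT). Oca2 gave an exact p of 0.325 (0.02 in STAT3cKO and 1.56 in WT), and Slc45a2 one of 0.365 (0.91 in STAT3cKO and 2.48 in WT).

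**Figure D3:**
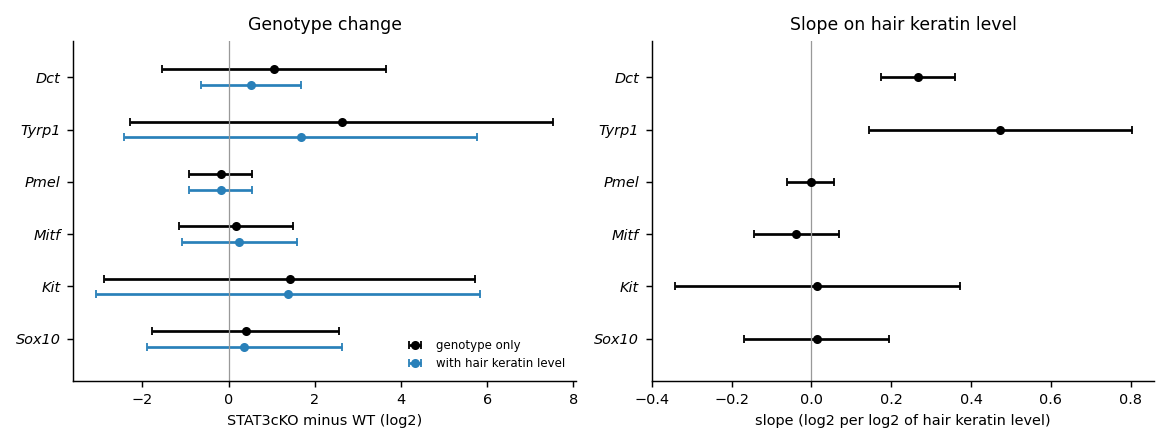
Left, STAT3cKO minus WT changes (log2) of the 6 tested genes with 95% intervals, from the fit on genotype alone (black) and with the hair keratin level as a covariate (blue); all intervals include 0. Right, slopes on the hair keratin level with 95% intervals; those of Dct and Tyrp1 lie above 0, and that of Dct, 0.27, passed the adjusted test.

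The relation to the hair keratin level was tested in a second limma fit with genotype and that level as terms. Dct rose with the hair keratin level, and none of the other 5 tested genes passed. Over all tested genes 0.329% rose and 0.121% fell, 52 genes or 0.451% in all. Krt71 and Krt25 are among those that rose, which follows from their making the measure. Neither was taken out of the counts of the refits. The slope of Dct was 0.27 (SE 0.04, 95% interval 0.17 to 0.36, limma adjusted p = 0.00746), on average a 1.20-fold rise for each 2-fold rise of the hair keratins. That rate is only rough. STAT3cKO 2 and 4 and WT 1 and 2 had at most about 1 read of either keratin. Their distance from the other libraries thus depends on the 1 added before the log. The rise was not even. Dct was still at 7.74 and 7.72 in WT 3 and WT 5, whose hair keratin levels were 8.13 and 5.96. It was at 10.43 or more in STAT3cKO 1, 3 and 5 and WT 4, whose levels were 11.67 or more. Dct ranked the libraries close to the order of their hair keratin levels in both genotypes: within WT, Dct fell in the order WT 4, 3, 5, 1 and 2, and within STAT3cKO, it was 10.43 to 10.77 in the 3 libraries with high hair keratins and 7.57 and 8.38 in the other 2.

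The call of Dct was lost without WT 4, where its slope of 0.18 had an SE of 0.05 and a limma adjusted p of 0.305. In that fit 6 genes in all were called, Krt71 and Krt25 among them. The 6 shallower libraries alone gave 0.32 (SE 0.06, limma adjusted p = 0.0200), and the 4 deeper ones, which leave 1 residual degree of freedom, 0.19 (SE 0.06, limma adjusted p = 0.577). Of the deeper libraries only STAT3cKO 5 had a hair keratin level above 0.39, and of the shallower ones only STAT3cKO 2 had one below it. The hair keratin level and depth class were thus entangled. With depth class as a term the slope of Dct was 0.29 (limma adjusted p = 0.0107).

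Tyrp1 had a larger slope with a larger error, 0.47 (SE 0.16, 95% interval 0.14 to 0.80, unadjusted p = 0.00744, limma adjusted p = 0.322). The slope of Mitf was −0.04 (95% interval −0.14 to 0.07), that of Kit 0.01 (−0.34 to 0.37), that of Sox10 0.01 (−0.17 to 0.19) and that of Pmel −0.002 (−0.061 to 0.057), with limma adjusted p of 0.836 to 0.986. In the fit without the filter, over 15831 entries, Mlana had a slope of 0.48 (SE 0.13, limma adjusted p = 0.112), Slc45a2 one of 0.19 (limma adjusted p = 0.647) and Tyr one of 0.13 (limma adjusted p = 0.728), and Oca2, read in 1 library, was not part of it.

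**Figure D4:**
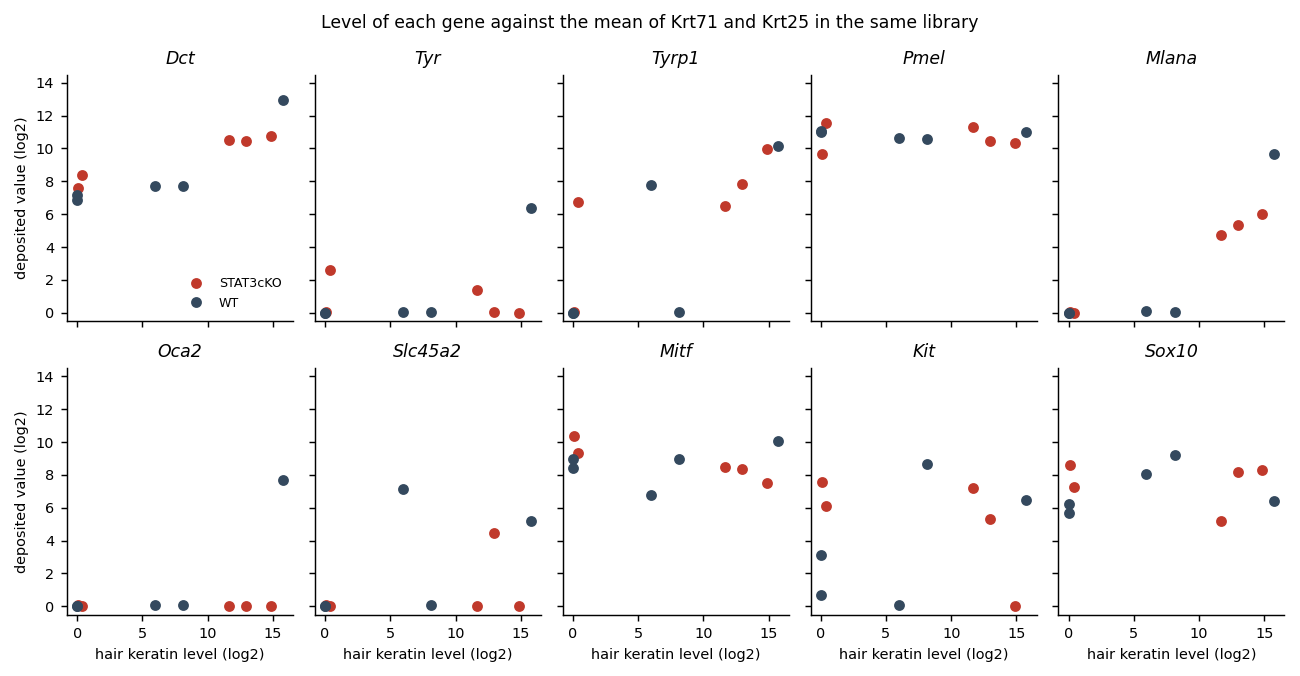
Deposited log2 value of each gene against the hair keratin level, the mean of Krt71 and Krt25, in the same library; red points are STAT3cKO and dark points WT. Dct lies at 10.43 to 12.93 in the 4 rightmost libraries and at 6.84 to 8.38 in the others. Mlana has reads in the 4 rightmost libraries only, and Mitf, Kit, Sox10 and Pmel show no such order.

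Other genes of the pigment pathway were taken from 2 lists. Of 33 genes of melanosome assembly, transport and ion channels 27 were tested, and 0 rose and 0 fell with either genotype or hair keratin level by limma, with 3 and 4 of them at an unadjusted p under 0.05, as were 10.9% of all tested genes for genotype and 9.36% for the hair keratin level. Bloc1s1, a subunit of the complexes that sort cargo to melanosomes and lysosomes, had a genotype change of −1.57 (limma adjusted p = 0.0747). It was called with the hair keratin level as a covariate (−1.70, limma adjusted p = 0.0237) and among genes with a value of at least 5 in all libraries (limma adjusted p = 0.0374). Atp7a, the copper pump that loads tyrosinase, had a change of 2.99 (limma adjusted p = 0.202). Gpnmb, a relative of Pmel that macrophages also make, had a slope of 0.10 on the hair keratin level (limma adjusted p = 0.400), and Rab32, a small GTPase of melanosome transport, one of −0.08 (limma adjusted p = 0.481).

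Of 25 melanocyte signals and factors 24 were in the files and 16 were tested. None was called between the genotypes by limma, and 1 had an unadjusted p under 0.05, Tfap2a with a change of 2.34 (limma adjusted p = 0.387). Sox9, a factor of hair follicle stem cells and the outer root sheath as well as of melanocytes, was the 1 that rose with the hair keratin level, at a slope of 0.17 (SE 0.03, limma adjusted p = 0.00874). Its values were 10.99, 8.82, 11.00, 9.37 and 10.68 in STAT3cKO 1 to 5, and 8.003, 7.67, 8.80, 11.23 and 9.51 in WT 1 to 5. Its call was lost without WT 4 (limma adjusted p = 0.253), in the 4 deeper libraries (slope 0.12, limma adjusted p = 0.600) and with the replicate block (limma adjusted p = 0.301). Its genotype change was 1.13 (limma adjusted p = 0.549).

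Beside these, 7 of the 9 other tested hair shaft and inner root sheath genes rose with the hair keratin level, with slopes such as 1.02 for the hair keratin Krt81 (limma adjusted p = 9.18e-05) and 0.90 for Krt85 (limma adjusted p = 0.000907). Without WT 4 the limma adjusted p was 0.0311 for Krt81 and 0.0811 for Krt85, and the slope of Krt81 did not pass in the shallower or the deeper libraries alone (limma adjusted p = 0.178 and 0.577). Krt33a and Krt34 had slopes of 0.94 and 0.85 (limma adjusted p = 0.00114 and 0.00502; without WT 4, 0.0901 and 0.185; Krt34 without STAT3cKO 3, 0.0659). These genes belong to the same structure as Krt71 and Krt25, so they describe the measure and not pigment. None of the 11 tested genes of that list was called between the genotypes by limma, and 0 had an unadjusted p under 0.05; S100a3 and Krt35 had changes of 2.76 and 2.27 (limma adjusted p = 0.766 and 0.797). Krt5, the keratin of basal cells and the outer root sheath, rose at 0.10 (limma adjusted p = 0.0205), the only call among 8 skin identity genes, and missed the threshold without STAT3cKO 1, 2 or 3 or WT 2 or 4 (limma adjusted p = 0.0632 to 0.185), with the other inner root sheath keratins as the measure (0.0806), with depth class as a term (0.0529), with the replicate block (0.650) and in the deeper libraries (0.754). Between the genotypes 0 of those 8 were called and 5 had an unadjusted p under 0.05; the epidermal genes Krt1 and Lor had changes of 3.44 and 1.96 (limma adjusted p = 0.0540 and 0.0618). Both lay close to the threshold and were called under some other settings: Krt1 under 6, with limma adjusted p down to 0.00134 with the replicate block, and Lor under 6, with limma adjusted p down to 0.00797 without WT 5. Mast cell and Schwann cell genes, 7 tested in each list, had 0 calls in either comparison by limma; at an unadjusted p under 0.05 there were 3 mast cell and 1 Schwann cell genes for the hair keratin level, and 1 of each for genotype. Genotype changes were −2.12 for Cpa3, 2.94 for Hdc, −0.72 for Pmp22 and 1.20 for Egr2 (limma adjusted p = 0.317 to 0.538), and slopes −0.12 for Mcpt4, −0.08 for Cma1 and 0.14 for Egr2 (limma adjusted p = 0.293 to 0.488). All 7 mast cell slopes were negative, with a median of −0.10, beside 0.01 over all tested genes.

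**Figure D5:**
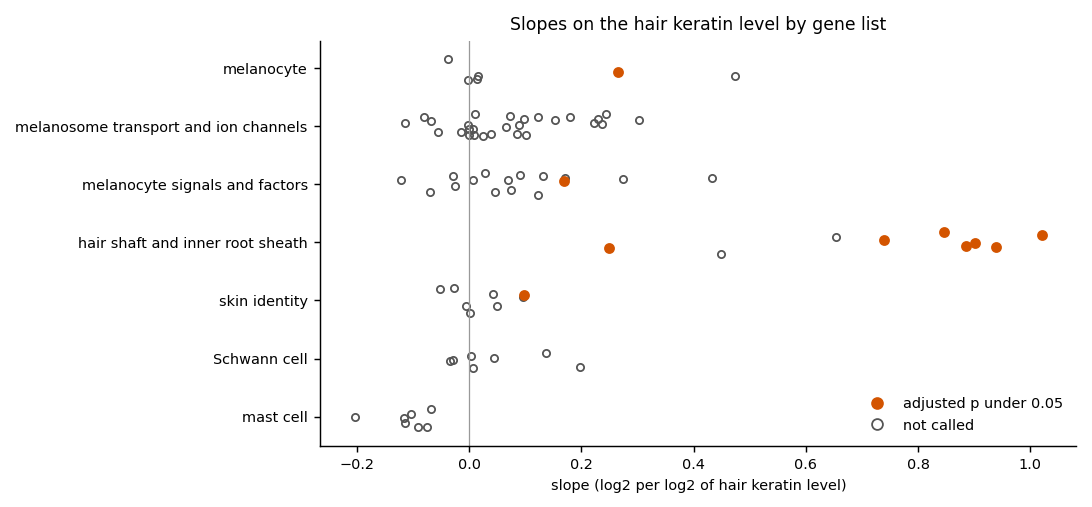
Slope on the hair keratin level (log2 per log2) of every tested gene by list, with Krt71 and Krt25 left out; filled points passed limma at an adjusted p under 0.05. Dct is the filled point of the melanocyte list and Sox9 that of the signals and factors; the hair shaft list lies furthest to the right.

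The summed level of the 7 melanin and melanosome genes on the log2 scale was 11.57, 9.96, 12.01, 11.74 and 11.99 in STAT3cKO 1 to 5, and 11.15, 11.06, 10.75, 13.56 and 11.06 in WT 1 to 5. Pmel made 31.8 to 87.0% of that sum in STAT3cKO libraries and 16.9 to 94.7% in WT libraries, and Dct made 9.8 to 45.3% in STAT3cKO and 5.3 to 64.6% in WT. Since the Pmel level is uncertain beside Dgka, with which it shares exonic bases, the sum and its profile are uncertain too. Over the 10 libraries, the tested genes closest to this profile by Pearson's r were Ddx3x (0.96), H1f0 (0.94), Atxn7l3b (0.93), Rhog (0.91) and Ptgds (0.90). Without Pmel, a sum chosen after the values were seen, the closest were Mt4 (0.96), Sox9 (0.95), Gja1 (0.95), Hmgb2 (0.93) and S100a16 (0.93), and Krt25 ranked 19th (0.90) and Krt71 23rd (0.89), against 450th and 366th for the sum with Pmel. These are descriptions over 10 libraries that differ in depth and hair keratin level.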

How the data were processed

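RNA of whole skin was extracted with Trizol and made into Lexogen QuantSeq libraries, per the labels' protocols. The submitters' processing notes name Bowtie2, bedtools and mm10. Not given in the sources used are versions, annotation, strand, scaling and duplicate removal, and no unit stands in the headers. The deposited values, 1 table per library, behave as log2 of scaled reads plus 1: undone, they sum to 9690000 to 11400000 per library, and low values lie near multiples of 1 read (87.3 to 100.0% of values up to 20 reads within 0.15 of a whole read). Depth and read numbers were estimated from that step, and a value under 0.5 of a read counts as no read. Genes without a read had values of up to 0.013 to 0.080 in the 6 shallower libraries and of 0.0 in the 4 deeper ones. The sources do not explain this difference between the libraries. The sources mention no molecular identifiers.

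Linear models were fitted with limma 3.58.1 in R 4.3.3 (mean trend, robust moderation) to the deposited values of 11536 genes, with genotype, or genotype and the hair keratin level, as terms. Calls had an adjusted p under 0.05. Changes are STAT3cKO minus WT, errors of means SDs and those of changes standard errors. The members and lists were chosen with earlier results of these data known. All 10 members are named; from each other list up to 4 called genes with the lowest p, or the 2 tested genes with the lowest p where none was called, and the 5 genes closest to the summed melanin gene profile. One gene that this rule names is not reported here. Repeated symbols (44 entries) stayed as entries of their own, and lists used the first. The fits were tested on simulated data. Same-numbered libraries did not deviate together, so no pairing was used. Positions come from GENCODE M21 and promoter sequences from RefSeq. Figures were drawn with matplotlib 3.10.9.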

Additional observations from a re-analysis of the deposited data

Results flagged for a closer look

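In groups of 5 libraries, a value was picked out when its gap to the nearest other made more than 0.71 of the group's range (Dixon's test); 24 groups of the 10 genes and 2 hair keratins were examined. The test picked out 5. Chance does this in about 1 in 20 groups of normally distributed values; that rate does not hold for Tyr, Mlana, Oca2 and Slc45a2, where the other 4 libraries of the group had no read and any clear value would have been picked out. In WT 4, Dct stood at 12.93 (next highest WT library 7.74), Tyr at 6.37, Mlana at 9.64 and Oca2 at 7.68. Tyr, Mlana and Oca2 had no read in the other WT libraries. WT 4 was also the library with the highest hair keratin level, 15.75. In STAT3cKO 1, Slc45a2 stood at 4.45, about 17 reads, with no read in the other STAT3cKO libraries.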

How the results depend on the processing

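Over the settings tried, none of the 124 refits of the 6 genotype changes called a gene (lowest limma adjusted p = 0.126, over the range 0.126 to 0.990 without 1 library). The count of genes called between genotypes, 61 higher and 53 lower in STAT3cKO, became 107 and 89 with values of at least 5 in all libraries, 98 and 83 with quantile normalization, 13 and 31 without trend and robust moderation, 34 and 32 with the replicate block, 82 and 92 in the 4 deeper and 12 and 4 in the 6 shallower libraries, and ranged over 29 to 96 and 24 to 111 without 1 library (both highest without WT 4). The count of genes that rose or fell with the hair keratin level, 38 and 14, became 84 and 19 without the filter, 33 and 3 with the hair level as the only term, 167 and 46 in the shallower and 0 and 0 in the deeper libraries (990 at an unadjusted p under 0.05 by limma), 63 and 12 with depth class as a term, 50 and 29 without STAT3cKO 2 and WT 3, 68 and 26 with quantile normalization and 6 and 3 with the replicate block, and ranged over 6 to 46 and 0 to 23 without 1 library (both lowest without WT 4).

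The slope of Dct stayed positive throughout: 0.178 to 0.293 without 1 library (9 of 10 fits called, lost without WT 4), 0.187 in the deeper libraries (adjusted p = 0.577) and 0.299 with the replicate block (adjusted p = 0.0502); the other settings kept the call. Some values turned sign. Genotype changes were −0.0247 for Tyrp1 and −0.783 for Kit in the shallower libraries, against 6.61 and 4.72 in the deeper ones, 0.395 for Pmel in the deeper libraries, and −0.131 for Mitf without STAT3cKO 2 and WT 3; without 1 library Pmel ranged over −0.406 to 0.065 and Mitf over −0.301 to 0.532, Tyrp1 over 1.69 (without STAT3cKO 3) to 4.26 (without WT 4), Kit over 0.483 (without WT 5) to 2.72 (without STAT3cKO 3) and Sox10 over 0.0398 (without WT 1) to 0.97 (without STAT3cKO 5). Slopes on the hair keratin level were −0.0225 for Tyrp1 in the deeper libraries; for Pmel 0.00448 with the other inner root sheath keratins, 0.0498 in the shallower libraries, 0.0425 with depth class and 0.00205 with quantile normalization; for Mitf 0.000282 without STAT3cKO 2 and WT 3 and 0.0191 with the block; for Kit −0.159 in the shallower libraries and −0.00295 with depth class; for Sox10 −0.0354 with the other keratins, −0.0816 in the shallower and −0.181 in the deeper libraries, −0.0997 with depth class, −0.00138 with quantile normalization and −0.0142 with the block; and 0.0281 for Cma1, a mast cell chymase, in the deeper libraries. Without 1 library the slopes ranged over −0.036 to 0.025 for Pmel, −0.124 to 0.00341 for Mitf, −0.104 to 0.158 for Kit and −0.017 to 0.053 for Sox10. The causes were not tested. Alternatives on the hair keratin level for depth, scaling, the block and the doubted libraries were chosen after seeing the data. The correlation of deviations between same-numbered libraries was −0.155 to 0.016, so the numbers were not taken to pair libraries. Tyr, Mlana, Oca2 and Slc45a2 had no read in 6 to 9 libraries, deeper ones among them.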

Other observations

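Some pigment genes of the lists were under the filter on low values and had reads in few libraries; they were picked after their values were seen. Gpr143, the melanosomal receptor of ocular albinism, had 6.27 in STAT3cKO 1 and 6.28 in STAT3cKO 3, against 6.13 in WT 4, and no read in the other 7 libraries. Mc1r, the melanocortin receptor, had 5.81 in STAT3cKO 1 and about 1 read in STAT3cKO 5, against 6.05 in WT 4, and none elsewhere. Slc24a5, an ion exchanger of pigment cells, had 5.45 in STAT3cKO 5 and about 1 read in STAT3cKO 3, against 8.88 in WT 4 and 5.70 in WT 2, which had no hair keratin read. Corin, a protease that the dermal papilla of pigmented follicles makes, had 6.10 in STAT3cKO 1 and 8.02 in STAT3cKO 3, against 7.35 in WT 4 and 3.34 in WT 5. Other such genes had reads in libraries with and without hair keratins. Trpm1, an ion channel of melanocytes, had 4.19 in STAT3cKO 1 and 6.22 in STAT3cKO 4, against 6.11 in WT 1, 7.43 in WT 4 and 6.01 in WT 5. Slc7a11, the cystine transporter, was highest in STAT3cKO 2, at 8.96, and in WT 4, at 8.43. Mlph, a linker of melanosomes to their motor, had 5.54 in STAT3cKO 3 and 7.81 in STAT3cKO 5, against 7.43 in WT 1 and 6.84 in WT 4. Edn3, a ligand for melanocyte precursors, had 5.58 in STAT3cKO 1, against 5.54 in WT 2, 6.21 in WT 4 and 7.48 in WT 5.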
